A study of Mus musculus with 6 samples.

Results

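The comparison described here set mouse pancreatic tumour cells carrying the second of 2 short hairpins against Pthlh beside the same kind of cells carrying a non-targeting hairpin. The members were chosen by label alone: the 2 libraries transduced with shPthlh oligo #2 (hairpin 2) and the 2 transduced with the non-targeting control shNT, 4 of the 6 libraries of the series. Genes entered when the deposited TPM, a share of transcripts corrected for their length, reached at least 1 in at least 2 of these 4 libraries, which left 11286 of 24493 genes. All libraries came from KPCY cells, a line from the pancreatic tumours of genetically engineered mice that carry a yellow fluorescent lineage tag, on the C57BL/6 strain. The hairpins were the only labelled difference between the groups. The condition label describes the cells as tumour cells sorted from animals, whereas the growth protocol describes culture in DMEM, so which of the 2 the RNA came from is not settled by the labels. The design text mentions 2 parental clones, but the labels do not assign them to libraries. Nothing in the labels says that the 2 libraries of a group came from separate cultures or animals. The p-values therefore reflect variation among these 4 libraries alone, and that variation may be technical.

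Pthlh encodes parathyroid hormone-related protein (PTHrP), a secreted peptide that acts through the G protein-coupled receptor encoded by Pth1r and raises cAMP in the receiving cell. It patterns bone, mammary gland and placenta during development, and tumours that secrete it can cause hypercalcaemia and wasting. A large share of the genes described below belongs to cholesterol synthesis, the chain of enzymes that builds sterols from acetyl-CoA. The transcription factor SREBP2 switches that chain on together when membrane sterols are low, and its sister SREBP1 acts on fatty acid synthesis. SREBP sites in these promoters often stand beside CCAAT boxes bound by the factor NF-Y.

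Levels are given as TPM after scaling each library by the median ratio over the 4 libraries, with factors between 0.969 and 1.04. The scaling was used because 1 short RNA entry, Mir6236, took 34.1% and 24.3% of the deposited TPM in the shNT libraries and 23.4% and 21.4% with hairpin 2. Across genes, Pearson's r was 0.987 between the shNT replicates and 0.992 between those of hairpin 2, against 0.982 to 0.988 between the groups. Over 8659 genes with a mean of at least 5, the median absolute log2 difference between replicates was 0.10 for shNT and 0.05 for hairpin 2. The first shNT library was low in short transcripts: genes whose longest transcript is under 500 nucleotides were at a median 0.27 higher on the log2 scale in the second shNT library, while genes of 4000 nucleotides and more were at -0.05. The sequencing depth is unknown, since TPM holds no counts. Of 8 markers of the labelled ductal epithelium 7 passed the filter, with Krt18 at 1296 to 1576 and Cdh1 at 271 to 322. The eighth, the epithelial adhesion gene Epcam, was nearly absent in all 4 libraries at 0.30 to 0.62.

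Pthlh itself was low in every library. With shNT its libraries held 0.78 and 0.99 TPM, and with hairpin 2 they held 0.041 and 0.25, so the groups did not overlap and the hairpin 2 mean was 16.7% of the shNT mean. On the log2(scaled TPM + 1) scale used for all changes here, the difference was -0.72 with a standard error of 0.12 and a 95% interval of -1.06 to -0.37 (limma adjusted p = 0.140 over 17809 genes fitted without the filter). The exact two-sided permutation test gave p = 0.333, the smallest value that 2 against 2 libraries allow. The pseudocount of 1 understates the change of so low a gene: the difference was -2.13 with a pseudocount of 0.1. The gene lies on the minus strand at chr6:147252101-147264183 of mm10.

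The receptor gene of the peptide was close to absent from the cells. Pth1r did not exceed 0.055 TPM in any of the 4 libraries, and the related receptor gene Pth2r did not exceed 0.059. Of 24 listed receptor, cAMP and CREB genes 17 passed the filter, and 1 of them, Mmp13, changed (1.52% of all genes tested did). Mmp13, a collagenase that PTH-type signalling induces in bone cells, fell from 12.8 and 13.3 TPM to 5.53 and 5.54 (log2 change -1.11 ± 0.06 SE, limma adjusted p = 0.020). The cAMP-responsive factors Nr4a1, Crem and Atf3 had differences of -0.18, -0.26 and -0.38 and did not pass. Nor did the listed genes Nr4a2, Sik1 and Per1, at -0.10, -0.01 and 0.23. Of the 17 genes, 13 were below 0 and 4 above. The catalytic subunit gene Prkaca was at 121 and 121 TPM against 125 and 127. The median over the 17 genes was -0.16, beside 0.01 over all genes tested.

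Across all genes tested, 172 of 11286 changed at a limma adjusted p below 0.05, which is 1.52%. Of these, 53 (0.47%) rose and 119 (1.05%) fell with hairpin 2, and in all 172 both hairpin 2 libraries lay on one side of both shNT libraries. Such a separation alone was common among these 4 libraries: 28.6% of genes tested lay higher and 27.9% lay lower in this way. The median fall was -0.68 and the median rise 0.97 on the log2 scale. Some called genes, such as Mir1938 and Alb, passed the filter only through the group where they are high, and their number was not counted. Of genes whose longest transcript is under 500 nucleotides, 15 were called higher and 3 lower. The 2 medians therefore do not show that rises were stronger than falls. At an unadjusted p below 0.05 the share was 22.4%, with 9.78% higher and 12.6% lower. A total of 17 of the 172 are small RNA entries. With the deposited TPM left unscaled, the median of all genes moved by 0.09 and 130 genes were called, 65 in each direction.

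**Figure D1:**
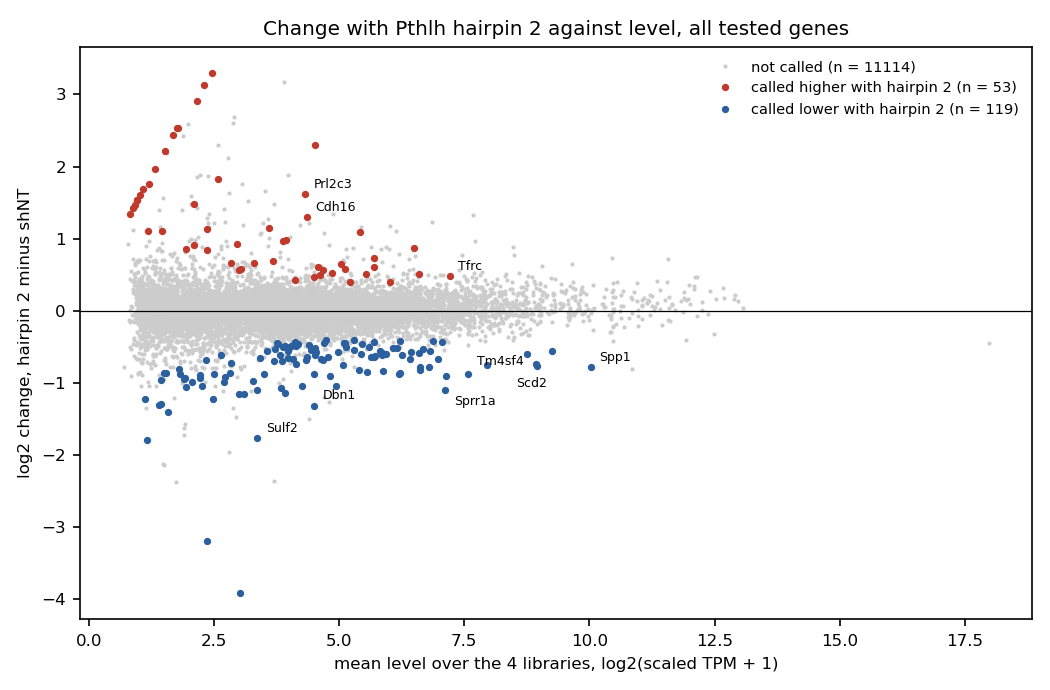
Change with hairpin 2 (log2 change, hairpin 2 minus shNT, y axis) against the mean level over the 4 libraries (log2(scaled TPM + 1), x axis) for 11286 genes, each point 1 gene. The 53 genes called higher (red) lie mostly at low levels, whereas the 119 called lower (blue) extend to Spp1 near 1000 TPM. The points named are a few of the genes given in the text.

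The number of calls rested on each library. Without the first shNT library 70 genes were called, without the second 1662, and without either hairpin 2 library 0 (1034 and 1079 genes had an unadjusted limma p below 0.05 in these fits). Each of the 54 genes named by the rule and called lost the call without either hairpin 2 library, with adjusted p from 0.173 to 0.516 without the first and 0.157 to 0.458 without the second. Of the same 54, 27 lost it without the first shNT library, with adjusted p of 0.0514 to 0.0751. The direction of all 172 genes was the same in each of these fits. Their groups did not overlap, so leaving out 1 library could hardly reverse a direction.

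Among genes with a mean of at least 5 TPM, the largest falls that the rule names were those of Sulf2, Dbn1, Fermt2, Spon2 and Thbs1. Sulf2, which removes 6-O-sulfates from heparan sulfate outside the cell, fell from 15.6 and 14.3 TPM to 3.37 and 4.02 (log2 change -1.77 ± 0.10 SE, limma adjusted p = 0.020). Its hairpin 2 mean was 0.247 of the shNT mean, the lowest ratio among the 14 largest falls. Dbn1, which encodes the actin-binding protein drebrin, fell from 33.2 and 29.3 to 12.4 and 11.5 (-1.32 ± 0.08 SE). Fermt2, which encodes kindlin-2, an activator of integrins, fell from 10.5 and 9.79 to 3.97 and 3.98. Thbs1, the matricellular glycoprotein thrombospondin-1, fell from 20.4 and 19.02 to 8.78 and 7.98. In these 4 genes the groups stood far apart relative to either replicate pair. Itga2, the collagen-binding integrin alpha subunit at chr13:114833081-114932100, fell from 41.1 and 39.1 to 18.9 and 18.9 (-1.05 ± 0.05 SE). Cp, the copper-carrying ferroxidase ceruloplasmin, fell from 25.7 and 23.6 to 11.5 and 11.3. Nt5e, the ectonucleotidase CD73 that makes adenosine from AMP, fell from 36.2 and 35.6 to 17.5 and 19.8. The remaining falls of the 14 largest were Spon2, Mmp13, Sprr1a, Fam84a, Sdc3, Dpysl3 and Odaph, with log2 changes of -1.15 to -0.92.

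At high levels the falls held a secreted phosphoprotein, lipid enzymes and a cornified envelope gene. Spp1, the secreted phosphoprotein osteopontin, was the most abundant of the called genes the rule names and fell from 1296 and 1342 TPM to 756 and 779.9 (log2 change -0.78 ± 0.07 SE, limma adjusted p = 0.033). Sprr1a, a cornified envelope protein, fell from 177 and 201 to 85.9 and 89.0 (-1.10 ± 0.08 SE). Tm4sf4, a tetraspanin-like membrane protein of gut and liver, fell from 233 and 261 to 132 and 136 (-0.88 ± 0.07 SE). In each of the 3 genes the 2 hairpin 2 libraries lay closer together than the 2 shNT libraries did in TPM. The other 3 of the 6 largest falls at 100 TPM and more were the lipid genes Idi1, Scd1 and Scd2, given with their pathways. The call of Spp1 was lost with the deposited TPM left unscaled, and so was that of Dpysl3.

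Among genes with a mean of at least 5 TPM, Prl2c3, Cdh16 and Sult1c2 had the largest rises of those the rule names. Prl2c3, a member of the placental prolactin family at chr13:12790816-12800079, rose from 9.15 and 8.52 TPM to 27.5 and 31.0 (log2 change 1.62 ± 0.08 SE, limma adjusted p = 0.020). Cdh16, the kidney cadherin at chr8:104601911-104624396, rose from 9.98 and 11.7 to 29.3 and 26.8 (1.30 ± 0.09 SE). Sult1c2, a cytosolic sulfotransferase, rose from 6.62 and 6.498 to 15.8 and 15.8 (1.15 ± 0.06 SE). No shNT library came near a hairpin 2 library in these 3 genes. Crip2, a LIM domain protein, rose from 60.5 and 65.5 to 116 and 116 (0.87 ± 0.06 SE). Phlda2, an imprinted gene that restrains placental growth, rose from 7.99 and 9.82 to 18.3 and 18.4. Sod3, the extracellular superoxide dismutase, rose from 4.55 and 4.16 to 8.31 and 10.1. Txnip, which encodes the thioredoxin-binding arrestin that limits glucose uptake, rose from 17.1 and 18.8 to 27.3 and 28.5, the 2 pairs of libraries again well separated. Cldn6, a tight junction claudin of embryonic epithelium, rose from 39.6 and 40.8 to 62.4 and 61.3. The other 6 were Dpcr1, Mrps17, Sord, Dlk2, Rdm1 and Chpt1, with log2 changes of 0.65 to 0.97. At 100 TPM and more, the single rise was Tfrc, the transferrin receptor that imports iron, from 120.1 and 126 to 171 and 173 (0.48 ± 0.05 SE). The call of Rdm1 was lost when a trend with transcript length was removed (adjusted p = 0.058), and those of Dlk2 and Chpt1 after centring on their chromosome.

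**Figure D2:**
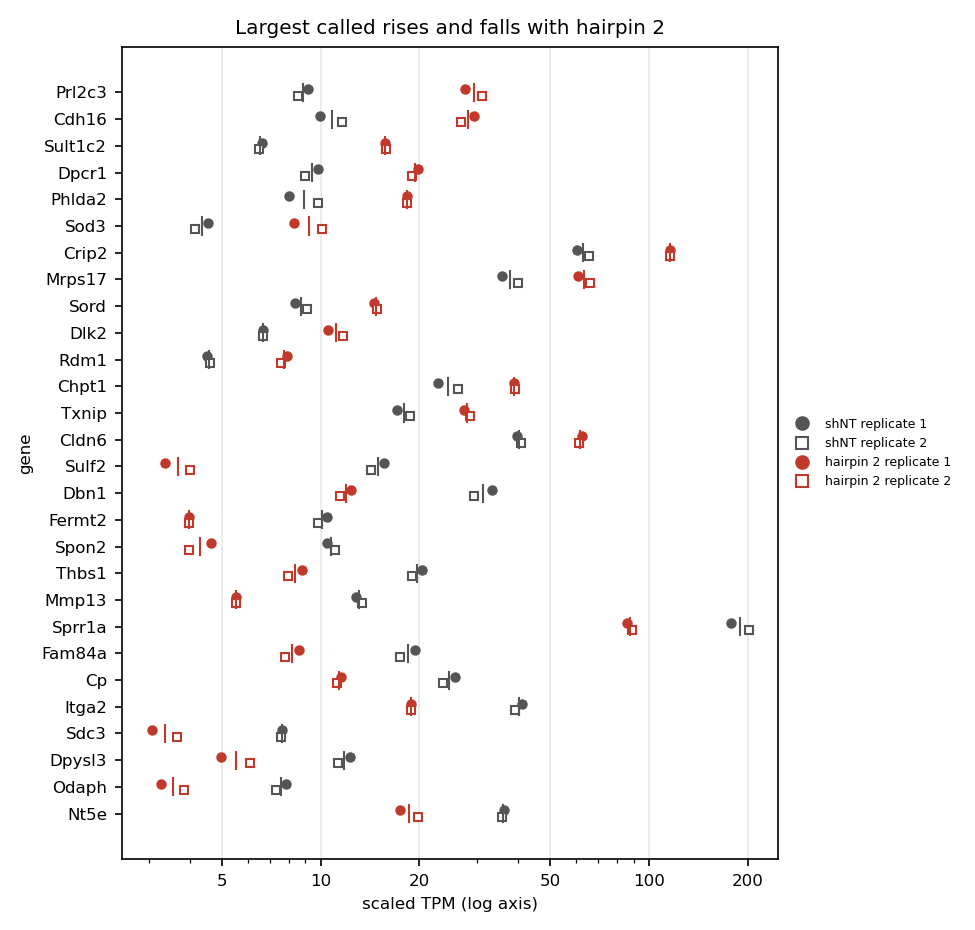
Scaled TPM (log axis) of the 14 largest rises and the 14 largest falls in each of the 4 libraries, each symbol 1 library and each bar a group mean. In all 28 genes both hairpin 2 libraries lie on one side of both shNT libraries; Sulf2 and Prl2c3 show the widest gaps.

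The same changes were counted over 33 gene lists, which hold 612 tested genes. A total of 16 lists had at least 1 called member and 8 had 2 or more. Over the lists together 40 of the 612 genes fell and 5 rose, beside 1.05% and 0.47% of all genes tested. The lists were chosen with earlier results of these data known, so these counts are no result about pathways at large. With 1.52% of all genes called, a short list can hold 0 called members without differing from the rest. The cholesterol synthesis list stood at one end with 16 called members; no other list had more than 4.

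**Figure D3:**
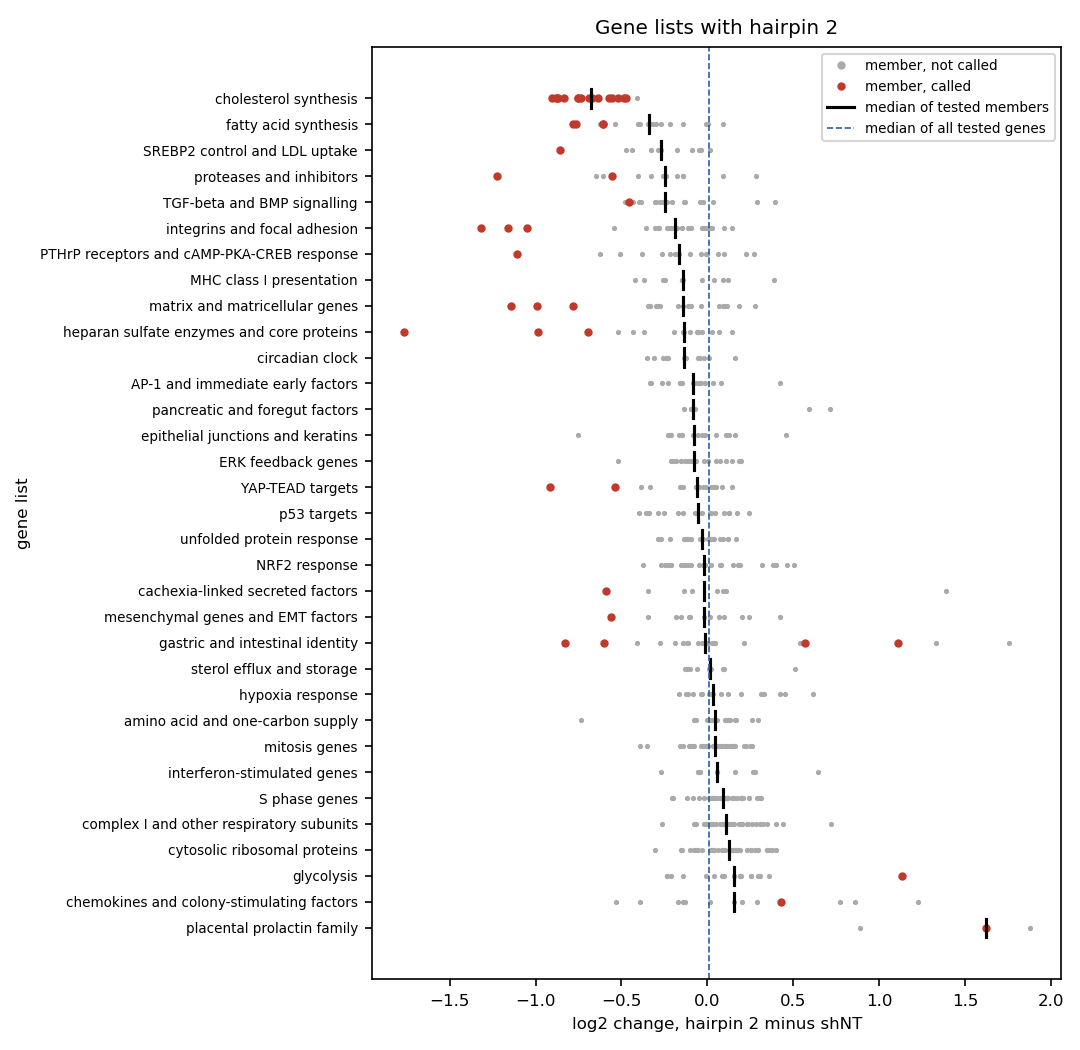
Log2 change with hairpin 2 (x axis) for the tested members of 33 gene lists (y axis), each point 1 gene, red where called, with the list median as a black bar and the median of all tested genes as a dashed line. All 20 cholesterol synthesis genes lie below 0, between -0.90 and -0.41.

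The 20 enzymes of cholesterol synthesis were all lower with hairpin 2. All 20 passed the filter, and 16 of them fell, beside 1.05% of all genes tested. In 20 of 20 both hairpin 2 libraries lay below both shNT libraries, against 27.9% of all genes tested. Their median change was -0.68. In the first steps, Hmgcs1, which makes HMG-CoA, fell from 102 and 103 TPM to 69.6 and 67.7, a change of -0.57 that was smaller than the list median. In the mevalonate and isoprenoid steps, Mvk, the mevalonate kinase, fell from 41.1 and 42.1 to 24.1 and 24.6 (-0.75 ± 0.05 SE), and Mvd, the decarboxylase, fell from 93.6 and 95.4 to 52.4 and 50.1 (-0.87 ± 0.05 SE, limma adjusted p = 0.020). Idi1, the isomerase that makes dimethylallyl diphosphate, fell from 183 and 184 to 99.7 and 95.5, the largest change of the list (-0.90 ± 0.05 SE, adjusted p = 0.020). Fdps, the farnesyl diphosphate synthase and the most abundant of the 20 in TPM, fell from 611 and 615 to 363 and 373. From squalene onward, Sqle, which oxidises squalene, fell from 130.1 and 135 to 89.5 and 90.4. Cyp51, the lanosterol demethylase, fell from 96.7 and 92.0 to 50.8 and 51.3 (-0.87 ± 0.05 SE). Msmo1, the sterol methyl oxidase, fell from 309 and 309 to 183 and 184. Sc5d, the lathosterol desaturase, fell from 71.6 and 77.7 to 41.7 and 41.0, and Dhcr7, the reductase of the last step to cholesterol, fell from 23.2 and 23.9 to 16.6 and 16.8. In these 10 genes the spread within a pair was small beside the gap between the pairs. Among the 4 members that did not pass were Tm7sf2, Ebp and Pmvk, at adjusted p of 0.054, 0.054 and 0.078 and changes of -0.68, -0.41 and -0.51. The count of falls was 10 without the first shNT library, 20 without the second, 0 without either hairpin 2 library and 12 with the deposited TPM unscaled. The list median stayed between -0.73 and -0.59 across all alternatives tried.

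**Figure D4:**
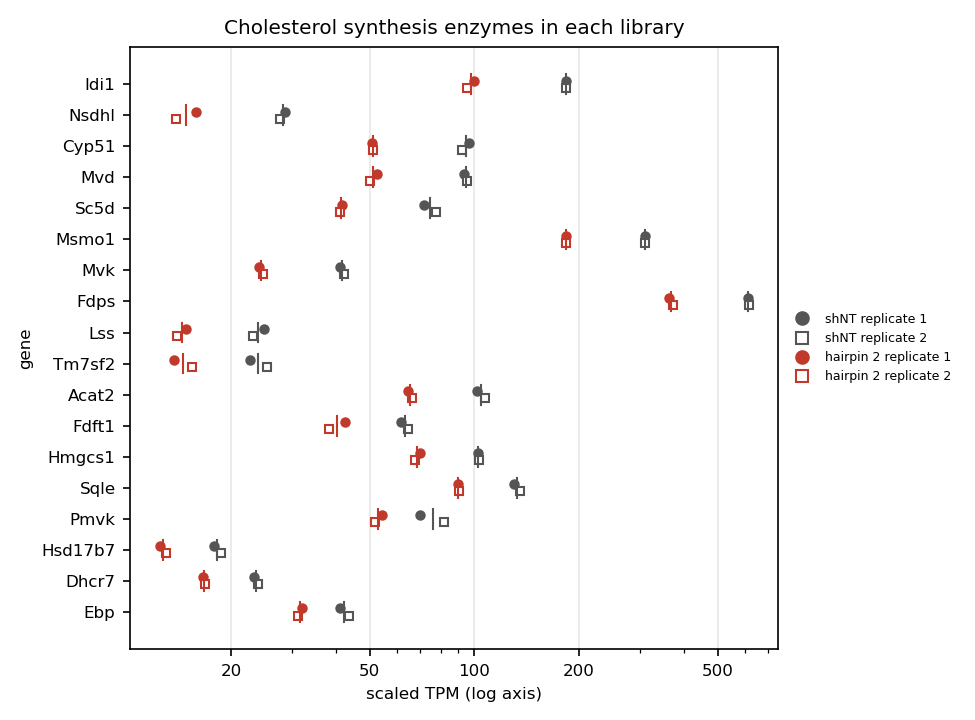
Scaled TPM (log axis) of 18 of the 20 cholesterol synthesis genes in each of the 4 libraries, circles for replicate 1 and squares for replicate 2, with group means as bars. In every gene plotted both hairpin 2 libraries (red) lie to the left of both shNT libraries (grey).

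Promoters of 4 of these enzymes, those with the smallest p in the list, are shown because their letters carry the CCAAT motif that recurs in the pathway. Each line gives the 100 bases directly before the RefSeq gene start (GRCm38.p6, which is mm10), with CCAAT and its reverse complement ATTGG in capitals. The windows are chr13:8885506-8885605 on the plus strand for Idi1, chr8:122443423-122443522 on the minus strand for Mvd, chr5:4104698-4104797 on the minus strand for Cyp51 and chr5:114444169-114444268 on the plus strand for Mvk.
Idi1: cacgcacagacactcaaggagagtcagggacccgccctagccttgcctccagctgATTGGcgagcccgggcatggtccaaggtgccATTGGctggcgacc
Mvd: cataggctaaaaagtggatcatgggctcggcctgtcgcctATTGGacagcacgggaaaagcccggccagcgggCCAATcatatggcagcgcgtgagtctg
Cyp51: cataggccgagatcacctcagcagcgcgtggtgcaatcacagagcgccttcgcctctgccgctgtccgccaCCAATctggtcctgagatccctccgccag
Mvk: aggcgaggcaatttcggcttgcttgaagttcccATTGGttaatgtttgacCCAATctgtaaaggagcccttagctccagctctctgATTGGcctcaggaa
The 5 letters of the motif occur 2 times in the windows of Idi1 and Mvd, 3 times in that of Mvk and 1 time in that of Cyp51. Over the 250 bases before the start, CCAAT was present on either strand in 14 of the 15 cholesterol synthesis genes with a promoter entry, or 93.3%, the exception being Acat2. The share was 41.0% over 8730 tested genes with an entry and 37.5% over all 27025. It was 6 of 10 for the SREBP2 control list and 11 of 17 for the fatty acid list. The sterol regulatory element in the form TCACNCCAC was found on either strand in 1 of the 15, Hmgcs1, and in 1.27% of tested genes. These matches describe letters in a window, not binding.

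Genes that control SREBP2 or take up LDL moved less than the enzymes. Of 13 listed, 11 passed the filter and 1 changed, beside 1.52% of all genes. This was Insig1, which holds the SREBP complex in the endoplasmic reticulum and is itself an SREBP target. Insig1 fell from 61.6 and 58.0 TPM to 33.2 and 31.9 (log2 change -0.86 ± 0.06 SE, limma adjusted p = 0.022). Srebf2 was at 154 and 133 against 119 and 119 (-0.27, adjusted p = 0.17). The groups did not overlap in either gene, and in 9 of the 11 members both hairpin 2 libraries were the lower ones, beside 27.9% of all genes. The list median was -0.27.

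In fatty acid synthesis 2 desaturases and 2 elongases fell. Of 18 tested genes 4 fell and 0 rose, beside 1.05% and 0.47% of all genes. The median was -0.34, and 15 of 18 were lower in both hairpin 2 libraries (27.9% of all genes). Scd1 and Scd2, the stearoyl-CoA desaturases that make oleate, fell from 144 and 134 TPM to 80.1 and 80.7 (log2 change -0.78 ± 0.06 SE) and from 650.4 and 599.6 to 371 and 363 (-0.77 ± 0.07 SE). The call of Scd2 was lost with quantile normalization (adjusted p = 0.072). The 2 genes are close paralogs lying near each other on chromosome 19, and reads shared between them could be split by the quantification. Elovl5 and Elovl6, elongases of polyunsaturated and saturated chains, fell from 92.5 and 89.8 to 58.4 and 60.4 and from 53.5 and 49.3 to 33.0 and 33.7. Other members of both enzyme families did not pass: the desaturase genes Fads1 and Fads2 were at -0.39 and -0.54 (adjusted p = 0.11 and 0.071), and the elongase genes Elovl1 and Elovl7 at -0.14 and 0.01 (adjusted p = 0.26 and 0.97). Nor did the chain-building enzymes: Acly was at -0.33, Acaca at -0.22 and Fasn at -0.27 on the log2 scale, with adjusted p of 0.059, 0.14 and 0.15. Srebf1 was at -0.32 (adjusted p = 0.11). In sterol efflux and storage 0 of 10 tested genes passed, beside 1.52% of all genes. Both hairpin 2 libraries were lower in 2 of the 10 and higher in 4, beside 27.9% and 28.6% of all genes. The median was 0.01, below 0 with small RNA entries left out. At an unadjusted limma p below 0.05, 1 of the 10 passed, beside 22.4% of all genes.

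Heparan sulfate genes changed in 3 of 17 tested members, all downward, beside 1.05% of all genes that fell. Besides Sulf2, these were Sdc3, a syndecan core protein, from 7.65 and 7.57 TPM to 3.06 and 3.66 (log2 change -0.98 ± 0.10 SE), and Hs6st2, a 6-O-sulfotransferase, from 16.5 and 17.6 to 9.98 and 10.3 (-0.69 ± 0.06 SE). Hs6st2 adds the 6-O-sulfate that Sulf2 removes. The polymerases Ext1 and Ext2 were at -0.20 and -0.06, and the abundant syndecans Sdc1 and Sdc4 at -0.14 and -0.14, none of which passed. In 12 of the 17 both hairpin 2 libraries were lower, beside 27.9% of all genes, and the list median was -0.14.

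Adhesion genes fell in 3 of 25 tested, Itga2, Fermt2 and Dbn1, beside 1.05% of all genes, and 17 of the 25 were lower in both hairpin 2 libraries, beside 27.9% of all genes, with a median of -0.19. Itgb1, the beta subunit that pairs with Itga2, was at 333 and 320 TPM against 286 and 291 (log2 difference -0.18, adjusted p = 0.17). Itga3, the laminin-binding subunit, was at 154 and 152 against 153 and 156. Of the paralog pair of kindlins, Fermt1 was at -0.15 (adjusted p = 0.20) where Fermt2 fell by 1.16. Among matrix genes 3 of 21 fell, beside 1.05% of all genes. These were Thbs1, Spp1 and the fibrillar collagen gene Col5a1, which went from 4.46 and 4.64 to 1.80 and 1.78 (-0.99 ± 0.08 SE). The basement membrane collagens Col4a1 and Col4a2 were at 0.07 and 0.11 and did not pass. Of 14 proteases and inhibitors 2 fell, beside 1.05% of all genes. Timp3, a matrix-bound metalloproteinase inhibitor, went from 17.9 and 17.7 to 12.1 and 11.5. Serpine2, an inhibitor of thrombin and plasminogen activators, went from 2.34 and 1.76 to 0.27 and 0.33. In 12 of the 14 both hairpin 2 libraries were lower, beside 27.9% of all genes, and the median was -0.25. Serpine2 passed the filter only through the shNT libraries, where it is high, so its call only describes the levels. That call was lost with the deposited TPM and after centring on its chromosome.

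Gastric and intestinal genes went both ways. Of 20 tested, 2 rose and 2 fell, beside 0.47% and 1.05% of all genes. The median was -0.01, above 0 with the deposited TPM. Muc5ac, the gel-forming mucin of the stomach surface, rose from 0.40 and 0.48 TPM to 2.14 and 2.08 (log2 change 1.11 ± 0.11 SE). It passed the filter only through the hairpin 2 libraries, where it is high, so its call only describes the levels. Lgals4, an intestinal galectin, rose from 19.8 and 19.1 to 30.4 and 28.3 (0.57 ± 0.06 SE), a call lost when the trend with transcript length was removed (adjusted p = 0.063). Ctse, the gastric aspartic protease cathepsin E, fell from 122 and 125 to 65.8 and 72.8 (-0.83 ± 0.07 SE). Anxa10, a gastric annexin, fell from 71.9 and 73.0 to 44.6 and 50.2 (-0.60 ± 0.07 SE), a call lost with the deposited TPM (adjusted p = 0.064). The trefoil peptides had large differences and large spread. Tff1 was at 87.7 and 149 against 265 and 316 (1.33, adjusted p = 0.093), and Tff2 at 3.004 and 2.41 against 15.1 and 8.71 (1.76, adjusted p = 0.064). Among regulators of this identity, Hnf4a and Gata6 were at -0.19 and -0.12 and did not pass. Of the pancreatic and foregut factors 0 of 6 tested passed, beside 1.52% of all genes, and 1 did at an unadjusted limma p below 0.05, beside 22.4%. Foxa1, a pioneer factor of foregut epithelium, was at 2.15 and 2.23 against 3.80 and 4.69 (adjusted p = 0.071).

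Of the placental prolactin family 3 of 7 listed members were tested and 1, Prl2c3, rose (0.47% of all genes rose). Prl2c2, the mitogen-regulated proliferin, was at 213 and 285 TPM against 439 and 474 (log2 difference 0.89, adjusted p = 0.076). Prl2c4 was at 0 and 2.65 against 6.46 and 5.61. The 3 are near-identical copies whose reads a quantifier can move between them, so their separate levels are uncertain. In each of the 3 both hairpin 2 libraries were above both shNT libraries, as in 28.6% of all genes. With reads that can move between the copies, the 3 are not independent observations.

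Secreted signals included neutrophil chemokines with differences that did not pass. Cxcl5 was at 113 and 144 TPM against 221 and 216 (log2 difference 0.77, adjusted p = 0.071), Cxcl3 at 37.8 and 52.1 against 80.9 and 81.7 (0.86, adjusted p = 0.082), and Cxcl2 at 2.30 and 3.62 against 8.49 and 7.77 (1.22, adjusted p = 0.062). For each of them the second shNT library was above the first, and both were below the hairpin 2 libraries. Over the whole list of 13 tested, 4 were higher and 3 lower in both hairpin 2 libraries, beside 28.6% and 27.9% of all genes. Changes were below 0 in 5 of the 13, the lowest at -0.53. Of 13 tested chemokines and colony-stimulating factors 1 rose, beside 0.47% of all genes. This was Csf1, the growth factor of macrophages, from 14.03 and 13.5 to 18.9 and 18.9 (0.43 ± 0.05 SE, limma adjusted p = 0.049). That call was lost with small RNA entries left out (adjusted p = 0.104). Among 8 tested factors linked with cachexia 1 fell, beside 1.05% of all genes. Angptl4, an inhibitor of lipoprotein lipase, went from 70.4 and 66.9 to 43.5 and 47.2 (-0.59 ± 0.06 SE), a call lost with the deposited TPM. Lif was at 3.53 and 3.21 against 3.78 and 3.65, and Il6 did not exceed 0.061 in any library.

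TGF-beta and BMP genes were lower in both hairpin 2 libraries in 14 of 18 tested (27.9% of all genes), with a median of -0.24, and 1 of 18 passed (1.05% of all genes fell). Pmepa1, a TGF-beta target that restrains Smad signalling, fell from 39.5 and 38.5 TPM to 28.9 and 27.5 (log2 change -0.45 ± 0.05 SE), and the call was lost with the deposited TPM and after centring on its chromosome. Smad3, the signal transducer, was at 39.1 and 36.2 against 27.2 and 26.3 (-0.48, adjusted p = 0.053). The BMP targets Id2 and Id3 were on the other side, at 0.29 and 0.40 (adjusted p = 0.071 and 0.053). Of 19 YAP and TEAD targets 2 fell, beside 1.05% of all genes. These were Nt5e and F3, the coagulation initiator tissue factor, which went from 121 and 119.5 to 82.7 and 82.8 (-0.53 ± 0.05 SE). The best-known targets of the pair were not called: Cyr61 was at 106 and 102 against 102 and 99.8, and Ctgf at 26.8 and 28.7 against 21.5 and 20.5 (adjusted p = 0.068). The YAP list median was -0.06, above 0 with the deposited TPM. Of 19 genes of ERK feedback and 15 AP-1 and immediate early genes 0 passed, beside 1.52% of all genes. At an unadjusted limma p below 0.05, 6 of each list did, beside 22.4% of all genes. Of these, 4 and 5 were lower with hairpin 2. Dusp6, a phosphatase that follows ERK activity, was at 67.6 and 61.7 against 61.7 and 60.7. Of 13 tested mesenchymal genes 1 fell (1.05% of all genes), the tropomyosin gene Tpm1, from 746 and 705 to 488 and 494 (-0.56 ± 0.07 SE). That call was lost with the deposited TPM, with quantile normalization and after centring on its chromosome (adjusted p = 0.088). Vim was at 1899 and 1764 against 1698 and 1719. Of 17 tested junction and keratin genes 0 passed, beside 1.52% of all genes, and 5 did at an unadjusted limma p below 0.05, beside 22.4%.

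Glycolysis genes lay slightly higher with hairpin 2. Of 19 tested, 1 rose, beside 0.47% of all genes. In 13 both hairpin 2 libraries were above both shNT libraries, against 28.6% of all genes, and the median was 0.15. The gene that rose was Slc16a3, the lactate exporter MCT4, from 2.201 and 2.19 TPM to 5.62 and 6.39 (log2 change 1.13 ± 0.09 SE, limma adjusted p = 0.025). Ldha was at 813 and 889.9 against 995 and 1031 (adjusted p = 0.18), and the muscle-type pyruvate kinase gene Pkm was on the other side at 2101 and 2182 against 1833 and 1868. The glucose transporter Slc2a1 was at 71.4 and 75.03 against 71.5 and 74.3. Of 17 hypoxia genes 0 passed, beside 1.52% of all genes, and 4 did at an unadjusted limma p below 0.05, beside 22.4%. Their median was 0.03, below 0 with small RNA entries left out.

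Lists of growth and stress held 0 called genes, beside 1.52% of all genes. At that share, lists of this size can hold 0 without differing from the rest. This was so for 36 S phase genes (median 0.09), 32 mitosis genes (0.05), 43 ribosomal protein genes (0.13) and 38 respiratory chain genes (0.11). At an unadjusted limma p below 0.05 the counts were 11, 11, 1 and 5, beside 22.4% of all genes. Of these, 9, 8, 0 and 4 were higher with hairpin 2. Both hairpin 2 libraries were above both shNT libraries in 22, 15, 14 and 16 genes of these lists, beside 28.6% of all genes. The ribosomal protein and respiratory chain lists hold many short transcripts, and their medians were -0.03 and -0.00 without the first shNT library. Likewise 0 passed of 22 unfolded protein response genes, 20 amino acid supply genes, 13 clock genes, 11 interferon-stimulated genes and 12 MHC class I genes, with medians of -0.03, 0.05, -0.13, 0.05 and -0.14 and unadjusted counts of 3, 3, 3, 3 and 5. Of 19 p53 targets and 26 NRF2 targets 0 passed either, with unadjusted counts of 6 and 10. The medians of the p53, NRF2 and unfolded protein lists were below 0 and turned above 0 with the deposited TPM.

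Markers of other cells were mostly near 0, with Cd14 and Cela1 as exceptions, and their part in the changes above was not tested. The 7 endothelial markers summed to at most 0.15 TPM, the 9 fibroblast markers to at most 0.54 and the 7 islet markers to at most 0.10. Of 10 myeloid markers 2 passed the filter, with sums of 71.5 and 73.0 against 61.3 and 59.6, nearly all from Cd14, while Adgre1 and C1qa were at 0 in every library. The 7 neutrophil markers summed to 1.45 and 1.38 against 2.33 and 3.17, with S100a9 at 0 and 0.38 against 0.97 and 1.53, and Mpo, Elane and Retnlg at 0. Of 8 lymphocyte markers 1 passed, with sums of 1.47 and 1.504 against 1.88 and 2.097, and Cd3e and Nkg7 were among those at 0. The 7 acinar markers summed to 14.9 and 20.8 against 11.7 and 11.8, nearly all from Cela1, and Cpa1, Amy2a5 and Pnlip were at 0. The 8 ductal markers summed to 4412 and 4207 against 3757 and 3796. In bulk RNA, fewer cells of a type and less RNA per cell cannot be told apart.

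The libraries with the first hairpin against Pthlh give a further set of levels, printed without a test because both hairpins share the shNT libraries. Pthlh was at 0 and 0.10 TPM there. Sulf2 was at 0.66 and 0.87, Dbn1 at 3.40 and 3.68 and Thbs1 at 0.80 and 0.85, each farther below the shNT levels than with hairpin 2. Idi1 was at 68.6 and 70.0, Mvd at 33.6 and 37.8, Insig1 at 33.4 and 33.6 and Scd2 at 329 and 327. Itga2 was at 18.97 and 18.4 and Cp at 12.8 and 10.6, near their hairpin 2 levels. Other genes lay on the opposite side of the shNT libraries in the 2 hairpins. Sprr1a was at 379 and 373 with the first hairpin, Tm4sf4 at 448 and 439.6, and Anxa10 at 160.1 and 158, all above shNT where hairpin 2 was below. Crip2 was at 19.2 and 20.9, Sod3 at 0.54 and 0.49 and Cldn6 at 12.5 and 12.8, all below shNT where hairpin 2 was above. Prl2c3 was at 126 and 115, above both other groups. Cdh16 was at 10.97 and 10.2, between the levels of the 2 shNT libraries.

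Position in the genome also separated the groups. The 635 tested genes of chromosome 9 had a median log2 change of -0.18, 77.0% of them below 0, whereas the other chromosomes had medians of -0.07 on chromosome 2 to 0.08 on chromosome 17. On chromosome 9, 20 genes were called lower and 1 higher, or 3.31%, against 1.52% over all genes and 3.59% on chromosome 3, whose median was -0.03. The shift began along the chromosome near 40 Mb, a boundary set after seeing the values. The 136 genes before it had a median of 0.03 and 1 called fall, Mmp13, and the 499 genes from it onward had a median of -0.23, with 86.6% below 0, 19 called falls and 1 called rise. Of 12 windows of 10 Mb on chromosome 9 with at least 20 genes, 8 had a median at or below -0.2, and 0 of 188 windows elsewhere did, where medians ran from -0.18 to 0.22. The highest of these lay in a block of chromosome 5 that was shifted upward, with a median of 0.22 over 108 genes at 130 to 140 Mb and of 0.18 over 73 genes at 140 to 150 Mb, and 0 called genes in both. The replicate pairs showed no such shift, with chromosome 9 medians of -0.02 between the shNT libraries and 0.01 between the hairpin 2 libraries. Nt5e, Tpm1, Elovl5, Sc5d, Smad3 and Pkm lie in the shifted part of chromosome 9. Centring each gene on its chromosome left 146 calls, 47 higher and 99 lower, and 16 of the 20 cholesterol genes called. It took off the median of the whole chromosome, -0.18 on chromosome 9, so part of the shift from 40 Mb onward remained. Genes before 40 Mb, such as Mmp13, were moved although their median was 0.03. The median of chromosome 5 was -0.01, so the block shifted upward there was left almost as it was. With the first hairpin, set against the same shNT libraries and given without a test, the median differences of these 8 windows of chromosome 9 were -0.30 to -0.14, and those of the 2 windows of chromosome 5 were 0.28 and 0.22. On chromosome 9 at 10 to 20 Mb the first hairpin was at -0.29 and hairpin 2 at 0.03, and on chromosome 2 at 20 to 30 Mb they were at -0.37 and -0.05. A difference between parental clones cannot be told apart from the hairpins in these regions, since no label gives a library its clone.

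**Figure D5:**
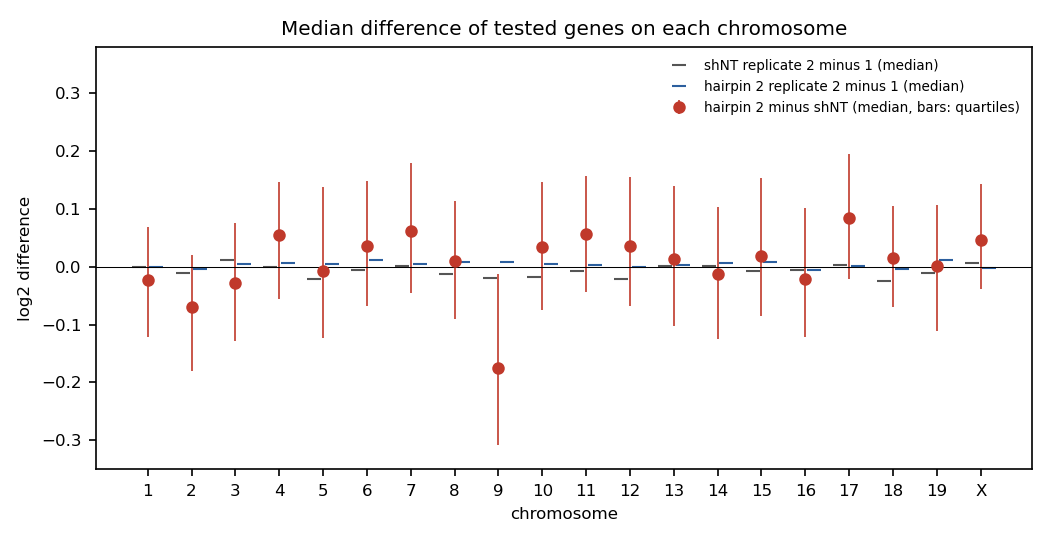
Median log2 change of tested genes (y axis) for each chromosome (x axis), hairpin 2 minus shNT as red points with bars for the quartiles, and replicate 2 minus replicate 1 within each group as short dashes. Chromosome 9 stands at -0.18, while the medians between replicates stay near 0 on all 20 chromosomes.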

How the data were processed

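RNA was measured by total RNA sequencing. The authors deposited 1 table of TPM, transcript shares corrected for length, for 24493 genes and 6 libraries. Per the submitters' processing notes, Salmon, R 3.5, DESeq2 and the mm10 build were used, and no version of Salmon and no use of DESeq2 in making the TPM is given in the sources used here. TPM sums to the same total in each library and keeps no depth, so no count test and no interval for counting error was possible.

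The 4 libraries of shNT and hairpin 2 were scaled by the median ratio over genes past the filter with no 0. Values were then taken as log2(scaled TPM + 1) and fitted in limma 3.58.1 (R 4.3.3), with 2 group means and a variance prior with a trend on level. P-values are two-sided with Benjamini-Hochberg adjustment over all 11286 genes, and a gene was called at an adjusted p below 0.05. Errors are limma standard errors with n = 2 libraries per group. Gene positions came from the GENCODE annotation of the same build, with 98.5% of tested genes matched, and promoters from RefSeq.

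Named genes are Pthlh, the 14 largest called rises and falls with a mean of at least 5 TPM, the 6 largest each way at 100 TPM or more, and up to 4 called members a list with the smallest p, leaving out predicted genes and small RNA entries. Other list members are named where they define a pathway, and a few members are counted but not reported by name here. The gene members, the lists and the scaling were chosen with earlier results of these data known. The main fit did not pair libraries by replicate number, since the labels do not say what a number shares. Replicate differences of the 2 groups correlated at r = 0.013 across genes. Alternatives were deposited TPM, small RNA entries left out, quantile normalization, other pseudocounts and filters, no trend, a replicate block, each library left out, centring by chromosome and removal of a length trend.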

Additional observations from a re-analysis of the deposited data

How the results depend on the processing

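The number of genes called, 172 as reported, was 516 with small RNA entries left out and TPM rescaled to the same total without them, 0 with no filter on low TPM (3014 genes had an unadjusted limma p below 0.05) and 0 with a replicate block (2219 unadjusted). The labels do not say what a replicate number shares. Replicate differences correlated at r = 0.013, which cannot show that no culture or batch was shared. The block also takes up a residual degree of freedom, and why the calls were lost with it was not tested. Leaving out 1 library gave 0 to 1662 calls; a lone library is then assumed to vary like the other group. With the trend in transcript length removed, an alternative chosen after seeing the data, 255 genes were called. The other settings gave 125 to 182. The cause was not tested for the shift with small RNA entries left out or for the loss of calls without a filter. All 54 called genes named by the rule lost the call with no filter and with the block, and 16 of them did without the trend of the variance prior. All of the 172 genes that a setting tested kept their direction in it. These were 155 with small RNA entries left out, 128 with a mean of at least 5 TPM and 172 in each of the others. Where 1 library was left out, the separation of the groups all but fixed this beforehand. The call on Pthlh, adjusted p = 0.140, did not change side in any alternative that fitted it, which the filters on level do not. Depth is unknown, so low genes such as Pthlh, Muc5ac and Serpine2 carry an unknown counting error, and 2 libraries a group limit every estimate.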

Other observations

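Several called genes lie outside the rule for named genes because of a low mean level. Those given here were chosen after their values were seen, and no theme was tested for them. Alb, Fabp1 and Apoc1 passed the filter only through the hairpin 2 libraries, and Grem1 only through the shNT libraries. The group where they are high thus let them in, so their calls only describe the levels. Alb, which encodes serum albumin, rose from 0.030 and 0.054 TPM to 2.87 and 2.21 (log2 change 1.76 ± 0.15 SE, limma adjusted p = 0.026). Apoa2, a high-density lipoprotein component, rose from 1.15 and 1.38 to 5.03 and 5.59 (1.48 ± 0.11 SE, adjusted p = 0.024). Aldh1a1, a retinaldehyde dehydrogenase, rose from 1.27 and 2.02 to 8.78 and 7.78 (1.82 ± 0.16 SE, adjusted p = 0.029). Fabp1, the liver fatty acid-binding protein, was listed at 0 in both shNT libraries and at 1.99 and 1.56 with hairpin 2, and Apoc1 at 0 and 0 against 1.51 and 1.87. Fabp2, the intestinal fatty acid-binding protein, went the other way, from 3.92 and 4.03 to 1.46 and 1.77 (-0.93 ± 0.10 SE, adjusted p = 0.041). Grem1, a secreted BMP antagonist, fell from 3.16 and 3.49 to 0.63 and 0.62 (-1.41 ± 0.11 SE, adjusted p = 0.025).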
